A study of Mus musculus with 77 samples.

Results

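The loss of CEBPA was set against the binding of PU.1, a second myeloid transcription factor, at all enhancers of a deposited table of granulocytic and monocytic enhancers. The cells were Cebpa KO preGM and wild type preGM, early granulocyte-monocyte progenitors of mouse bone marrow that both lack Lin, Sca-1, CD150 and CD105 and carry ckit. PU.1 was measured by ChIP-seq with 2 libraries a genotype, 4 in all, and the deposited table gives 1 value per enhancer and genotype. Every enhancer of the table was included and placed in 1 of 4 classes by its PU.1 ratio, 875 lost, 319 gained, 31578 kept and 11230 in between, which together are the whole table. The mouse strain, age and the way Cebpa was deleted are not given in the sources used here. Wild type LSK (stem and multipotent progenitor cells, labelled Lin-, Sca-1+, ckit), GMP (the granulocyte-monocyte progenitors that follow preGM, sorted on FcgRII/III) and Mac1+Gr-1+ granulocytes served as further stages. H3K27ac, which marks active enhancers, and H3K4me1, which marks enhancers in general, were deposited for KO and wild type preGM, and CEBPA for wild type preGM. Expression was not analysed here, so the sorted cell type was not checked against marker transcripts.

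PU.1, the product of Spi1, is an ETS-family factor that binds purine-rich DNA around a GGAA core, opens chromatin and, in myeloid cells, sits at many lineage enhancers. CEBPA, the product of Cebpa, is a basic leucine zipper factor that binds DNA as a dimer and is needed for the step to granulocyte-monocyte progenitors. Both factors are known to occupy many of the same myeloid enhancers, often side by side.

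For each enhancer the PU.1 signal in KO preGM was divided by that in wild type preGM, after adding 0.6 to both, and put on a log2 scale. The median of this ratio over all enhancers was -0.27, or 0.832-fold, and was subtracted, so log2 ratios below are relative to that median unless called uncentred. PU.1 is called lost at a log2 ratio of -1 or less (2-fold lower), gained at 1 or more, and kept within 0.5 of 0. With 1 pooled value a genotype there is no replicate error and no test, so each value below describes these pooled libraries, and enhancers, which share libraries and neighbourhoods, are not replicates. Fewer cells with PU.1 on an enhancer and less PU.1 per cell cannot be told apart.

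PU.1 was lost at 875 enhancers (1.99% of all), gained at 319 (0.725%) and kept at 31578 (71.8%), with 11230 (25.5%) in between. Of the 31578 kept enhancers, 20043 were classed by the authors as bound by neither PU.1 nor CEBPA, so kept there means an unchanged low signal. Among the 12441 enhancers classed as bound by PU.1, with or without CEBPA, 815 lost it (6.55%), 4 gained it (0.0322%) and 7230 kept it (58.1%). At lost enhancers the median PU.1 signal was 2.01 in KO preGM and 7.13 in wild type preGM. The median KO value was 30.3% of the wild type value, and at 680 of the 875 (77.7%) the KO value was still at or above the KO median of all enhancers. At gained enhancers the medians were 1.09 in KO preGM and 0.330 in wild type preGM, where the median over all enhancers in KO was 1.06, so the wild type value was low and the KO value near that of all enhancers. At kept enhancers they were 1.00 in KO preGM and 1.28 in wild type preGM. Across all enhancers KO and wild type levels had a Spearman correlation of 0.88, a description over enhancers measured in the same pooled libraries.

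The balance of lost and gained enhancers depended on how the PU.1 columns were scaled. Uncentred, 2707 enhancers were 2-fold lower in KO (6.15%) and 42 higher (0.0955%). Scaled to the same sum, 344 were lower and 1169 higher, which turns the balance round, and after quantile normalization 423 were lower and 170 higher. Of the 875 lost enhancers, 342 were still lost with equal sums and 367 after quantile normalization. The values just inside and just outside the limit were alike: an enhancer of 1110002B05Rik with 0.423 in KO and 1.86 in wild type preGM was lost, and one of Actr3 with 0.701 in KO and 2.53 in wild type preGM was not.

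The ratio followed the strength of binding. In the decile with the least PU.1 the median log2 ratio was 0.30, and in the decile with the most it was -0.53. In that strongest decile the median signal was 6.89 in KO preGM and 12.3 in wild type preGM, an uncentred 0.576-fold. The share lost was 7.98% there, against 0% in the weakest decile. In the weakest decile the medians were 0.358 in KO and 0.331 in wild type preGM. With 0.6 added to both, values this low can hardly reach the limit for loss, so that 0% is no result. Among the 11001 enhancers in the top quartile of mean PU.1 (2.55 or more), 691 were lost and 8 gained, and the KO value was above the wild type value at 374 (3.40%) before any centring. Quantile normalization, which makes both columns alike in their distribution, brought the median log2 ratio of this quartile minus that of all enhancers to -0.0077, while with equal sums it was -0.27 and as reported -0.42. Mean PU.1 itself contains both values. The summed PU.1 signal over all enhancers was 89028 in KO and 140958 in wild type preGM, and its part in the slope was not tested. Where it matters below, a level-adjusted ratio is also given, the log2 ratio minus the median of enhancers with like mean PU.1 in 20 bins.

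**Figure D1:**
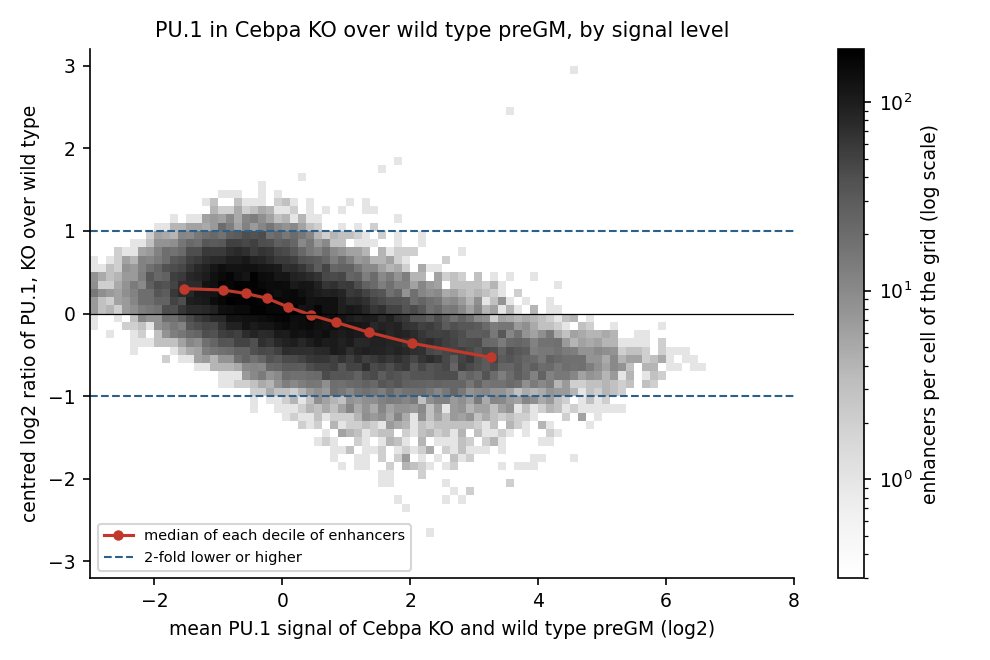
Each grid cell counts enhancers by mean PU.1 signal of KO and wild type preGM (x axis, log2) and centred log2 ratio of PU.1, KO over wild type (y axis); red points are the medians of deciles of enhancers. The medians run from 0.30 at the weakest decile to -0.53 at the strongest, and lost enhancers lie mainly at the right.

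Among strongly bound enhancers, the lowest ratio was at an enhancer of Chmp6, a subunit of the endosomal sorting machinery, on chr11:119668758-119668997 (mm9, as all enhancer coordinates here), with PU.1 at 0.673 in KO preGM and 8.89 in wild type preGM, a log2 ratio of -2.63. Wild type LSK had 3.75 and GMP 9.83 there, so the KO value was below that of every wild type stage measured. Next came Ctdp1, a phosphatase of the RNA polymerase II tail, with 0.710 in KO and 7.20 in wild type preGM. An enhancer of Capzb, the beta subunit of actin capping protein, had 1.62 in KO and 12.2 in wild type preGM. One of Ctsz, the lysosomal protease cathepsin Z, had 0.639 in KO and 6.37 in wild type preGM. Zcchc8, part of a nuclear RNA decay complex, had 1.33 in KO and 10.3 in wild type preGM, where GMP reached 27.2. The 7 others of the 12 lowest were assigned to 2310004I24Rik, D830046C22Rik, Sdcbp, Fam105a, Kcnj2, Dnase1l3 and Scnn1a, with log2 ratios from -2.16 to -2.03. Of the 12, 8 were in the authors' class of enhancers bound by both PU.1 and CEBPA, and 4 in that bound by PU.1 alone. The top quartile of mean PU.1, from which the 12 come, held 3364 and 6630 of its 11001 enhancers in these classes. Of all lost enhancers 52.8% were in the class with both factors and 40.3% in that with PU.1 alone.

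With each gene counted once, 7 of the 8 highest ratios in the top quartile of mean PU.1 were called gained relative to the median. The eighth gained enhancer of that quartile is a second one of Pion, with 4.59 in KO and 1.27 in wild type preGM. The highest were an enhancer of Zfp821, a zinc finger gene, with PU.1 at 39.6 in KO and 5.74 in wild type preGM, and one of Arf6, a small GTPase of membrane traffic, with 19.5 in KO and 3.89 in wild type preGM. Both stood apart in the marks as well. At the Zfp821 enhancer H3K27ac was 73.3 in KO and 45.6 in wild type preGM, the highest value of each column, and H3K4me1 was 5.72 in KO and 16.0 in wild type preGM. At the Arf6 enhancer H3K27ac was 30.0 in KO and 22.2 in wild type preGM, and H3K4me1 3.26 in KO and 7.41 in wild type preGM. PU.1 in wild type GMP was 76.5 at the Zfp821 enhancer and 63.6 at the Arf6 enhancer. H3K27ac at the other wild type stages was far lower than in preGM. It was 3.15 in LSK, 1.87 in GMP and 1.10 in granulocytes at the Zfp821 enhancer. At the Arf6 enhancer it was 3.28 in LSK, 4.72 in GMP and 10.2 in granulocytes. The cause of these unusual values was not tested, so the 2 sites cannot be taken as enhancers that gained activity. The next were Pion, with 5.72 in KO and 1.49 in wild type preGM, and Gse1, with 3.82 in KO and 1.61 in wild type preGM. Pik3r5, a regulatory subunit of the phosphoinositide 3-kinase of leukocytes, had 4.53 in KO and 2.27 in wild type preGM. Cttn, the actin regulator cortactin, had 3.71 in KO and 1.86 in wild type preGM, and G530011O06Rik had 3.52 in KO and 1.83 in wild type preGM. The enhancers of Pion, Gse1 and Cttn were in the authors' class bound by neither factor. That of G530011O06Rik was in the class bound by CEBPA only. Wild type preGM PU.1 at these sites ran from 1.27 to 1.86, against a median of 1.34 over all enhancers. Only their KO values bring them into this quartile, so they are not strongly bound sites in wild type preGM. Itgb2l, an integrin beta chain of neutrophils, had 5.62 in KO and 3.29 in wild type preGM and stayed under 2-fold at 0.95.

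The 8 strongest kept sites held their PU.1 relative to the median, although each of the 8 had less PU.1 in KO before centring. The strongest, of Sox5, an HMG-box transcription factor, had 60.0 in KO and 98.7 in wild type preGM. Alox5ap, needed for leukotriene synthesis in myeloid cells, had 54.8 in KO and 90.9 in wild type preGM. F2rl2, a protease-activated receptor, had 51.5 in KO and 69.7 in wild type preGM. Those of Nnmt, Akap5, Ssr1, Nub1 and Bri3 had log2 ratios from -0.49 to -0.33. The wild type LSK signal at the 8 ran from 39.3 to 78.1, so PU.1 was already high at the stem and progenitor stage. The strongest lost site in wild type preGM, of Tatdn1 and chosen after its values were seen, had 21.0 in KO and 58.1 in wild type preGM. Its LSK signal was 44.9, within the range of the 8 kept sites, so a high LSK value was not particular to kept sites.

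The targeted locus showed where KO chromatin stood apart. Cebpa had 16 assigned enhancers between chr7:35903351 and chr7:35937184. At chr7:35906741-35906988 PU.1 was 0 in KO preGM and 0.406 in wild type preGM, and H3K27ac 0.0320 in KO and 0.812 in wild type preGM. H3K4me1 there was 0.00686 in KO and 3.14 in wild type preGM. Over the whole table only 4 enhancers had H3K4me1 at least 2-fold lower in KO (0.00909%), and these were that enhancer, its neighbours of Cebpa at chr7:35905728-35905889 and chr7:35904704-35904792, and that of Zfp821. H3K27ac was at least 2-fold lower at 4 enhancers of Cebpa and at least 2-fold higher at 2, beside 0.657% lower and 0.323% higher over all enhancers. The 2 higher ones had 1.35 and 1.79 in KO and 0.230 and 0.452 in wild type preGM. At the 2 neighbours just named it was higher by less than that, 7.997 and 14.9 in KO against 4.09 and 7.48 in wild type preGM. PU.1 was lost at 1 of the 16, chr7:35936013-35936072, with 7.43 in KO and 19.2 in wild type preGM, and kept at 14. The 14 include chr7:35906741-35906988, where the pseudocount of 0.6 brings values near 0 to a ratio of -0.48. Which bases were deleted was not analysed here.

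No enhancer in the table was assigned to Spi1, which encodes PU.1 itself. In the RefSeq annotation of GRCm38.p6, used for gene order only, the protein-coding gene next to it on one side is Slc39a13, a zinc transporter, which was chosen after its values were seen. PU.1 was lost at 1 of the 4 enhancers of Slc39a13, chr2:90923235-90923323, with 17.8 in KO, 46.6 in wild type preGM, 41.3 in LSK and 40.8 in GMP. CEBPA there was 7.28 in wild type preGM, against a median of 0.534 over all enhancers. The other strong site of that gene, at chr2:90910887-90910905, had PU.1 at 43.2 in KO and 78.5 in wild type preGM and CEBPA at 0.384.

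CEBPA itself, an assay the ratio did not use, was higher in wild type preGM where PU.1 was lost. Its median was 0.806 at lost enhancers, 0.526 at gained and 0.527 at kept ones. The top decile of CEBPA signal (1.06 or more) held 313 of the 875 lost enhancers (35.8%), against 8.86% of kept and 4.70% of gained enhancers. Read the other way, 7.07% of the enhancers in the top decile of CEBPA lost PU.1, against 0.818% to 2.84% in the other deciles. Lost enhancers also had more PU.1, so the comparison was repeated at like PU.1 level. In the top quartile of mean PU.1, CEBPA was 0.799 at lost and 0.590 at kept enhancers, and in the next quartile 0.871 at lost and 0.559 at kept ones. By the level-adjusted ratio the median was -0.095 in the top decile of CEBPA and between -0.015 and 0.025 in the other deciles. Across all enhancers the Spearman correlation with CEBPA was -0.14 for the PU.1 ratio and -0.029 for the level-adjusted ratio.

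The authors' class of bound factor was read next. PU.1 was lost at 462 of 4054 enhancers bound by PU.1 and CEBPA (11.4%) and at 353 of 8387 bound by PU.1 only (4.21%). It was lost at 31 of 5395 bound by CEBPA only (0.575%) and 29 of 26166 bound by neither (0.111%). How the authors called a site bound, and in which cells, was not stated in the labels or headers, so the PU.1 part of the class cannot be taken as independent of the PU.1 signal. Within the top quartile of mean PU.1 the shares were 11.1% with both factors and 4.72% with PU.1 only, and within the next quartile 14.7% and 2.40% in the same order. By the level-adjusted ratio, 4.27% of sites with both factors and 0.847% of those with PU.1 only were lost. After quantile normalization the shares were 5.55% and 1.19%, with equal sums 5.20% and 1.18%, and uncentred 27.7% and 14.3%, each with both factors first. The share with both factors was thus above that with PU.1 only under each of these scalings, while its size was not stable. Of the 319 gained enhancers 290 (90.9%) were bound by neither factor, a class that holds 59.5% of all enhancers. That class also had the lowest PU.1, with medians of 0.802 in KO and 0.864 in wild type preGM. Of the gained enhancers 311 lay below the top quartile of mean PU.1, and their share by class was not read at like PU.1 level.

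**Figure D2:**
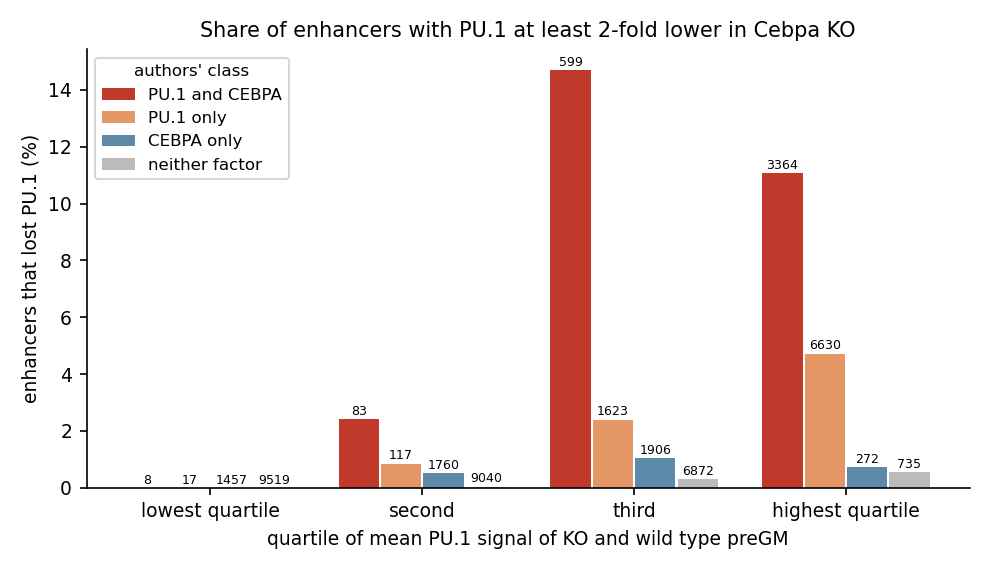
Bars show the percentage of enhancers that lost PU.1 in Cebpa KO preGM, by quartile of mean PU.1 signal (x axis) and by the authors' class of bound factor (colours); the number of enhancers stands on each bar. In the third and highest quartiles 14.7% and 11.1% of sites with both factors were lost, against 2.40% and 4.72% of sites with PU.1 only.

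Enhancers with the most CEBPA were found among both lost and kept ones. Among the lost enhancers with the most CEBPA were those of Ndrg1, Zbtb10, Ksr1, a scaffold of Ras signalling, Rab11fip4 and Mapkapk3, a stress-activated kinase. At that of Ndrg1, with CEBPA at 18.9, PU.1 was 5.94 in KO and 16.9 in wild type preGM. The 6 kept enhancers with the most CEBPA had CEBPA from 13.05 to 18.3, against 7.57 to 18.9 at the lost ones just named. Nfe2, a transcription factor of megakaryocyte and erythroid cells, kept PU.1 at 8.67 in KO and 14.5 in wild type preGM, and Sulf2, a heparan sulfatase, at 5.17 in KO and 8.71 in wild type preGM. Ctr9, a subunit of the PAF complex of transcription elongation, had CEBPA at 13.5 and hardly any PU.1, 0.580 in KO and 0.552 in wild type preGM. The other 3 were assigned to 5830418K08Rik, Rad23b and Rnf144a.

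Both histone marks had lower median ratios where PU.1 was lost, by little. The median log2 ratio of H3K27ac, centred in the same way, was -0.14 at lost, 0.02 at gained and 0.01 at kept enhancers. For H3K4me1 it was -0.11 at lost, -0.02 at gained and 0.01 at kept enhancers. H3K27ac was below the median of all enhancers at 65.0% of lost enhancers and 49.2% of kept ones, where 50% is the share over all enhancers by construction. H3K4me1 was below it at 69.8% of lost and 48.7% of kept enhancers, and both marks were below it at 47.8% of lost, 28.8% of gained and 25.7% of kept enhancers. A 2-fold lower H3K27ac was seen at 11 of the 875 lost enhancers (1.26%), against 0.657% of all enhancers, and a 2-fold higher one at 1 of the 875, against 0.323% of all. In 80.7% of lost enhancers the H3K27ac ratio stayed within 0.5 of the median, as in 82.0% of all enhancers. Uncentred, the H3K4me1 median at lost enhancers was -0.01, so its lower level holds only relative to other enhancers. Across all enhancers of the table the PU.1 ratio had a Spearman correlation of 0.014 with that of H3K27ac and -0.073 with that of H3K4me1, both near 0.

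**Figure D3:**
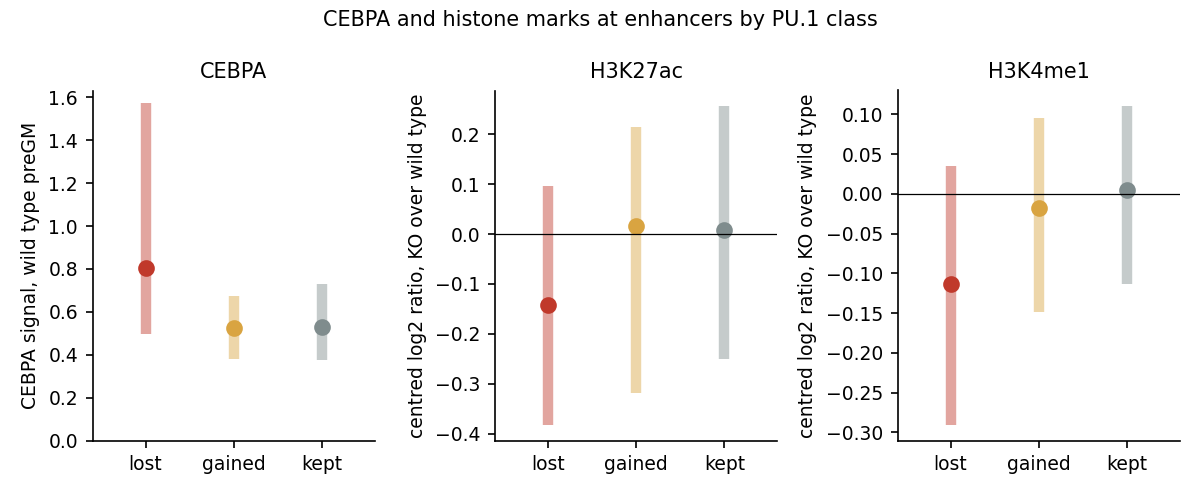
Points are medians and bars quartiles over the 875 lost, 319 gained and 31578 kept enhancers; the left panel gives CEBPA signal in wild type preGM, the others the centred log2 ratio of H3K27ac and H3K4me1, KO over wild type. Lost enhancers have the highest CEBPA (0.806) and the lowest mark ratios (-0.14 and -0.11), with quartiles that overlap those of kept enhancers.

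Among lost enhancers the marks were lower where both factors were bound than where PU.1 alone was. Lost enhancers of the class with PU.1 and CEBPA had a median of -0.18 for H3K27ac and -0.16 for H3K4me1. Lost enhancers with PU.1 only had -0.09 for H3K27ac and -0.04 for H3K4me1. Kept enhancers with both factors had -0.005 for H3K27ac and 0.07 for H3K4me1. By depth of loss, the 118 enhancers with a PU.1 ratio between -2 and -1.5 had medians of -0.28 for H3K27ac and -0.24 for H3K4me1. The 744 between -1.5 and -1 had -0.12 for H3K27ac and -0.09 for H3K4me1. The 13 below -2 had -0.40 for H3K4me1 but only -0.10 for H3K27ac.

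Individual lost sites differed widely in their marks. The lowest H3K27ac ratios were at an enhancer of Prkcd, a protein kinase C, and at one of Fam49b, chosen like the others of this paragraph after their values were seen. At Prkcd PU.1 was 5.98 in KO and 26.6 in wild type preGM, and H3K27ac 0.752 in KO and 2.79 in wild type preGM. At Fam49b PU.1 was 8.74 in KO and 24.3 in wild type preGM, and H3K27ac 0.677 in KO and 2.87 in wild type preGM. A second enhancer of Ctsz, at chr2:174263216-174263328, had the next lowest ratio, with H3K27ac at 0.923 in KO and 3.03 in wild type preGM, against 8.36 in GMP. An enhancer of Grb2, the adaptor of growth factor receptors, lost PU.1 with 5.86 in KO and 16.1 in wild type preGM, while H3K27ac was 1.63 in KO and 0.276 in wild type preGM. Chmp6, with the deepest loss, had H3K4me1 at 1.58 in KO and 3.86 in wild type preGM.

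Along the wild type course the lost enhancers held more PU.1 after LSK. Their median PU.1 was 2.76 in LSK, 7.13 in wild type preGM and 7.89 in GMP, with 2.01 in KO preGM. Wild type preGM was used to choose them, so its difference from LSK is a description only. KO preGM was below wild type LSK at 712 of the 875 (81.4%), against 47.5% of all enhancers. The rule that chose the 875 favours a low KO value, so this excess is a description only. GMP had more PU.1 than KO preGM at 875 of the 875 lost enhancers, against 64.9% of all enhancers, although KO preGM was chosen to be low there. H3K27ac at lost enhancers, in stages the rule did not use, was 0.926 in LSK, 1.45 in GMP and 1.92 in granulocytes. At kept enhancers it was 0.940 in LSK, 1.19 in GMP and 1.44 in granulocytes. The 2 classes differ in PU.1 binding: 815 of the 875 lost enhancers (93.1%) were classed as bound by PU.1, against 7230 of the 31578 kept ones. These H3K27ac levels were not compared at like PU.1 level.

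**Figure D4:**
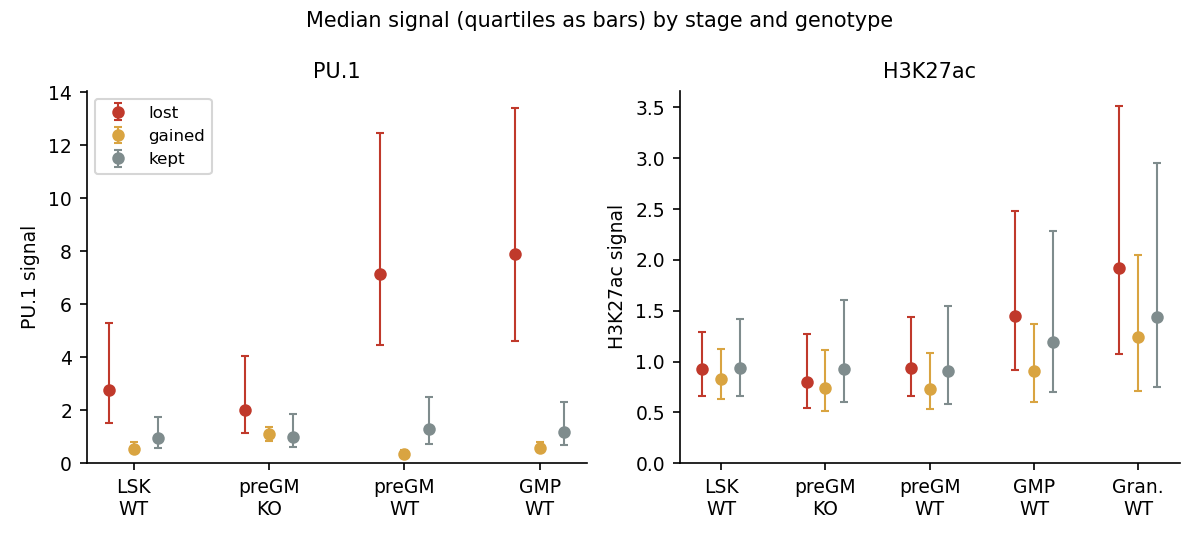
Points are medians and bars quartiles of PU.1 (left) and H3K27ac (right) signal at lost, gained and kept enhancers, by stage and, for preGM, by genotype. PU.1 at lost enhancers is 2.01 in KO preGM and 2.76 in LSK, while wild type preGM and GMP stand at 7.13 and 7.89. The classes were chosen by the KO and wild type preGM values of PU.1.

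The authors also classed enhancers by the stages at which they are present, and over all enhancers of a class the share lost ran from 1.19% (all 4 stages) to 3.93% (GMP and granulocytes), with 1.73% for granulocytes alone. Among sites bound by both factors it was highest in classes that begin at GMP or granulocytes. There PU.1 was lost at 17.2% of the 731 assigned to GMP alone, 17.4% of the 518 assigned to GMP and granulocytes, and 12.7% of the 756 of granulocytes alone. The shares were 8.49% and 7.85% in the classes that begin at preGM. They were 6.51% and 3.15% in the classes that begin at LSK. Among sites with PU.1 only that order did not hold: the shares ran from 2.23% (all 4 stages) to 6.03% (GMP alone), with 4.03% for granulocytes alone and 4.65% for LSK, preGM and GMP. By chromosome, from 1.04% (X) to 2.83% (18) of enhancers were lost.

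Genes seldom lost PU.1 at all their enhancers. Lost enhancers were assigned to 686 of 10096 genes, of which 625 also had a kept enhancer, and 41 had all enhancers lost, only 2 of these with 2 or more. The 875 lost enhancers formed 773 groups lying within 1 kb of each other. Among genes with 5 or more enhancers the largest share was lost at Tmem104, a transmembrane protein gene, with 4 of 8. The 4 lay between chr11:115049831 and chr11:115051338, with PU.1 from 0.767 to 1.15 in KO and from 5.37 to 6.39 in wild type preGM. The strongest site of Tmem104, at chr11:115070628-115070726, was kept, with 18.6 in KO and 27.4 in wild type preGM. Irgm2, an interferon-inducible GTPase, lost 3 of 8, with PU.1 from 1.02 to 2.65 in KO and from 4.80 to 12.1 in wild type preGM. There H3K27ac was higher in KO at all 3 lost sites, 3.85 to 4.56 against 2.46 to 3.50 in wild type preGM.

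Chst14, a dermatan sulfotransferase, Igfbp4, an IGF binding protein, and Pex26, of peroxisome assembly, each lost 2 of 5. In each of these 3 genes the 2 lost sites were close neighbours, with near-equal values. Those of Chst14 had 1.04 and 1.13 in KO and 6.45 and 6.45 in wild type preGM. Those of Igfbp4 had 8.05 and 6.57 in KO and 26.5 and 22.8 in wild type preGM, with CEBPA at only 0.361 and 0.354. By number rather than share, Plekho2 had the most lost sites, 7 of 25, followed by Fndc3b, Emb and Ggta1 with 5 each.

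To describe genes, 1 enhancer stood for each gene, that with the highest mean PU.1 of KO and wild type. By that rule 334 of 10096 genes lost PU.1 (3.31%), 31 gained it (0.307%), 6874 kept it (68.1%) and 2857 lay in between (28.3%). In the 334 the median PU.1 was 3.10 in KO and 10.3 in wild type preGM. Genes were then read in 18 lists of myeloid functions and of markers of other cells, chosen with earlier results of these data known. Of 217 listed genes with an enhancer, 19 lost PU.1 at their strongest enhancer (8.76%) and none gained it. The listed genes were not matched to other genes in the strength of their sites, and loss was more frequent at strong sites.

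Among monocyte and macrophage genes PU.1 was lost at 5 of 20 (25%, against 3.31% of all genes). Cd68, a lysosomal glycoprotein of macrophages with a single enhancer in the table, had 3.04 in KO and 11.3 in wild type preGM, with LSK at 4.60. F13a1, coagulation factor XIII of monocytes, had 3.27 in KO and 9.88 in wild type preGM, and CEBPA at 7.17. Ms4a6c, of the MS4A family of membrane proteins, had 2.99 in KO and 8.65 in wild type preGM. Ctss, the lysosomal protease cathepsin S, had 8.40 in KO and 21.9 in wild type preGM. Fn1, fibronectin, had 0.348 in KO and 1.71 in wild type preGM, a weak site. With equal sums or after quantile normalization 2 of the 20 were lost, and 1 by the level-adjusted ratio. Over all genes the share lost was 1.11% with equal sums, 1.07% after quantile normalization and 0.882% by the level-adjusted ratio, and the counts of the lists below are to be read beside these and 3.31%.

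Csf1r, the receptor that directs monocytes to macrophages and chosen after its values were seen, was just short of the limit at its strongest site, with 16.7 in KO and 39.1 in wild type preGM. It lost PU.1 at 2 of its 11 enhancers.

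Of 26 genes in the list of granulocyte-monocyte transcription factors 4 lost PU.1 (15.4%), and 2 (7.69%) with equal sums, after quantile normalization or by the level-adjusted ratio. Trib1, a pseudokinase that directs CEBPA to degradation and no transcription factor itself, had 3.69 in KO and 17.4 in wild type preGM at its strongest site, with GMP at 26.3. Myb, a proto-oncogene of progenitor growth, had 2.17 in KO and 8.53 in wild type preGM. Sox4, an HMG-box factor of progenitors, had 4.76 in KO and 12.5 in wild type preGM, and Cebpa is given above. The strongest sites of Runx1, at 12.6 in KO and 17.2 in wild type preGM, Cebpb, at 4.16 in KO and 5.29 in wild type preGM, and Stat3, at 5.61 in KO and 5.62 in wild type preGM, were kept. These 3 are examples chosen after their values were seen.

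Mpo, myeloperoxidase of the primary granules, lost PU.1 at its strongest of 11 enhancers, chr11:87593069-87593281, with 2.50 in KO and 7.20 in wild type preGM, LSK at 2.31 and GMP at 10.8. It was the 1 lost gene of 10 primary granule genes, and it was not lost with equal sums, after quantile normalization or by the level-adjusted ratio. Elane, neutrophil elastase and chosen after its values were seen, had 2.03 in KO and 5.004 in wild type preGM at its strongest site and lost PU.1 at 2 of 4 enhancers. Prtn3, proteinase 3 and chosen likewise, kept 4.19 in KO and 5.11 in wild type preGM. Among 16 secondary granule and mature neutrophil genes 2 lost PU.1. Ltf, the iron-binding lactoferrin, had 1.03 in KO and 5.30 in wild type preGM. Cxcr2, a chemokine receptor of neutrophils, had 4.63 in KO and 14.1 in wild type preGM, and CEBPA at 5.72. Under each of those scalings 1 of the 16 was lost, and 2 gained PU.1 with equal sums and 1 each by the other scalings, beside 1.13%, 0.317% and 0.277% of all genes gained with equal sums, quantile normalization and the level-adjusted ratio.

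The enhancers themselves could not be read as sequence, since no genome of build mm9 was used here. The promoters of 3 listed genes that lost PU.1, one from each of the primary granule, monocyte and secondary granule lists, are shown for the letters of both factors near their starts. They are the 250 bases before the start from RefSeq on GRCm38.p6, 5′ to 3′ on the gene's strand. Mpo lies on chr11:87793534-87793783, plus strand, Cd68 on chr11:69666171-69666420, minus strand, and Ltf on chr9:111019042-111019291, plus strand. Capitals mark GAGGAA, a PU.1 word, and TTGCNNAA, a CEBP half-site pair, on either strand.
Mpo: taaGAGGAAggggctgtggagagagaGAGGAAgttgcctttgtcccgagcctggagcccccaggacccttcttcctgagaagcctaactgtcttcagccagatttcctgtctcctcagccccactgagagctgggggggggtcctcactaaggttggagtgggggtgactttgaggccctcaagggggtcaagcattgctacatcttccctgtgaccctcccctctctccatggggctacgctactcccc
Cd68: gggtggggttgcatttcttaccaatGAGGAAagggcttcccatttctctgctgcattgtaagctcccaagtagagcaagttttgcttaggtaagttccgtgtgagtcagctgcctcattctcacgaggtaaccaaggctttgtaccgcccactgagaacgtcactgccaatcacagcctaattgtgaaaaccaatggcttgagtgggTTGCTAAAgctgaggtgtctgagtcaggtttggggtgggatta
Ltf: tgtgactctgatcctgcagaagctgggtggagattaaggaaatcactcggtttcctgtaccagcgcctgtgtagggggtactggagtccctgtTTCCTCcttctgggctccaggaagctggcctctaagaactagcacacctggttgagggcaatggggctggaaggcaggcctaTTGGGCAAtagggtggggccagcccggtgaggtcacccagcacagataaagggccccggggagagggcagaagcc
Mpo held the PU.1 word at 2 places and no CEBP word, Cd68 held one of each, and so did Ltf. Of 32851 RefSeq promoter windows of this length 23.3% held the PU.1 word and 9.56% the CEBP word, so such matches are common. PU.1 was measured at the enhancers above, not in these windows.

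Of 26 growth factor and cytokine receptors 3 lost PU.1 (11.5%), Cxcr2 among them, and 0 with equal sums, after quantile normalization or by the level-adjusted ratio. Il6ra, the interleukin 6 receptor, had 16.1 in KO and 43.4 in wild type preGM, with LSK at 16.8. Tnfrsf1b, a tumour necrosis factor receptor, had 15.03 in KO and 39.9 in wild type preGM. Of 15 genes of Fc receptors and their signalling, Fgr, a Src-family kinase of phagocytes, had 1.64 in KO and 7.79 in wild type preGM, and GMP had 12.9. It was the 1 lost gene of its list under each of those scalings too. Of 14 Toll-like receptor pathway genes, Nfkb1, a subunit of NF-kappaB, had 11.5 in KO and 28.5 in wild type preGM. Of 21 cell cycle genes, E2f1, a factor of S-phase entry, had 15.7 in KO and 45.8 in wild type preGM, and Ccnd3, cyclin D3, had 5.31 in KO and 14.4 in wild type preGM. Of 3 mast cell, basophil and eosinophil markers with an enhancer, Hdc, which makes histamine, had 4.60 in KO and 15.3 in wild type preGM. Nfkb1, E2f1 and Ccnd3 were not lost under any of those scalings, and Hdc with equal sums alone.

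**Figure D5:**
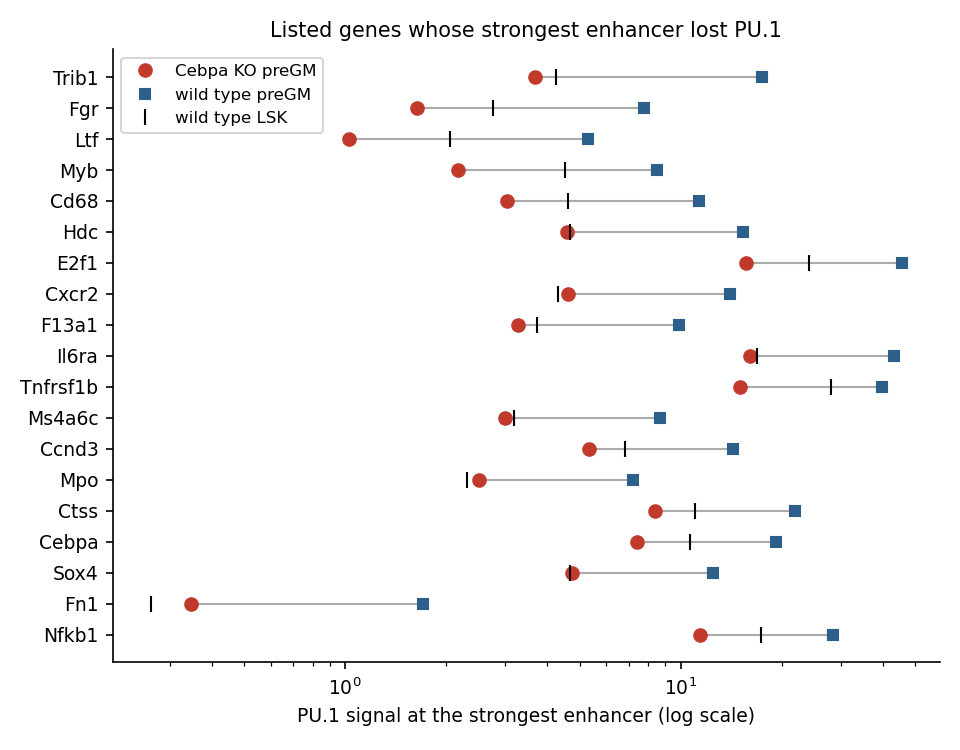
PU.1 signal (x axis, log scale) at the strongest enhancer of the 19 listed genes that lost PU.1: circles for Cebpa KO preGM, squares for wild type preGM, ticks for wild type LSK. KO values lie left of the wild type preGM squares, as the choice of genes fixes, and lie above the LSK tick only at Cxcr2, Mpo, Sox4 and Fn1.

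None was lost among 22 stem and multipotent progenitor genes, 16 leukocyte integrins and adhesion genes, 5 genes of the phagocyte NADPH oxidase or 9 housekeeping genes, and at 3.31% of all genes a count of 0 in lists this short is near the background. Kit, the stem cell factor receptor, had 1.73 in KO and 2.72 in wild type preGM at its strongest site, and Meis1, a homeodomain protein of early progenitors, 25.5 in KO and 44.9 in wild type preGM. Flt3, a receptor of early progenitors, had 6.87 in KO and 9.65 in wild type preGM, although 2 of its 17 enhancers were lost. Itgam, the chain of the myeloid marker Mac1, had 3.24 in KO and 3.63 in wild type preGM. The oxidase subunits with the lowest ratios were Cyba, with 16.6 in KO and 36.8 in wild type preGM, Ncf4, with 10.97 in KO and 22.9 in wild type preGM, and Ncf1, with 15.5 in KO and 31.3 in wild type preGM. The genes of this paragraph are examples chosen after their values were seen. None was lost or gained among markers of erythroid cells (6 measured), megakaryocytes (8), B cells (3), T and NK cells (7) and dendritic cells (8) at their strongest enhancers, to be read in the same way. Over all enhancers of the dendritic cell markers PU.1 was lost at 2 of 43, both of Flt3, 4.65% against 1.99% of all enhancers.

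Medians of most lists lay below that of all genes. They were -0.56 for transcription factors, -0.56 for monocyte genes, -0.54 for receptors and -0.36 for stem cell genes, beside -0.24 for all genes. By the level-adjusted ratio the 10 lists with 10 or more measured genes lay between -0.14 and 0.03, beside 0.0026 for all genes, and several changed sign against all genes when every enhancer was counted, so no direction is given for any list as a whole.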

How the data were processed

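Mouse ChIP-seq libraries of sorted bone marrow cells were summarised by the authors as 1 deposited signal value per enhancer and group (build mm9; 15 columns, each matching 2 of 30 libraries by assay, stage and genotype). Bowtie2, MACS2 and bedtools are named, without versions, per the submitters' processing notes. Per the labels' protocols, E. coli DNA was mixed with the ChIP DNA before library preparation; whether the signal was scaled by it, how libraries were pooled and their depth are not given in the sources used here. Without replicate values or counts, neither tests nor errors could be computed. A further 17 value columns (6 of expression, 6 of an undescribed quantity, 5 without a listed sample) were not used, so expression was not analysed here.

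Ratios were taken as log2((KO + pseudocount)/(wild type + pseudocount)) minus the median over all enhancers, with Python 3.11.15, pandas 2.3.3 and NumPy 2.4.6. Pseudocounts were the 25th percentile of an assay's columns to 1 digit: 0.6 for PU.1, 0.7 for H3K27ac and 2 for H3K4me1. The steps were run on simulated data with planted changes well past 2-fold and no slope with signal level. That run cannot bear on calls near the limit or on the choice of scaling. Coordinates are as deposited.

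Named were the 12 lowest and 8 highest ratios in the top quartile of mean PU.1, each gene counted once, the 8 strongest kept enhancers, and the 6 lost and 6 kept with the most CEBPA. To these came the 6 genes with 5 or more enhancers and the largest share lost, list members past 2-fold, Cebpa and Spi1. Of these, 2 genes are not reported here. Members and lists were chosen with earlier results of these data known. A few genes named outside these rules are said to be so or serve as examples of a list's kept members.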

Additional observations from a re-analysis of the deposited data

How the results depend on the processing

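No replicate values are in the table, so leaving out a replicate was not run, nor were expression alternatives. No paired analysis was possible because the columns are pooled and carry no replicate numbers. Of 167 alternative values, 100 stayed within the limits set, 50 moved past them and 17 changed sign. The limits were 1.5-fold for counts, and 0.05 for mark medians and 0.25 for list medians on the log2 scale. For CEBPA the limit was a fraction of the reported difference, and for class percentages a 95% interval over enhancers. The list limit is wide: for transcription factors a change from -0.32 to -0.075 by the level-adjusted ratio counted as within it. The level-adjusted ratio, thinning to 1 enhancer per 1 kb, and further scalings of classes and lists were chosen after seeing the data. Depth is unknown, so values near 0 cannot be weighed.

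Lost and gained enhancers, 875 and 319 as reported, numbered 2707 and 42 without centring, 344 and 1169 with equal sums, and 423 and 170 after quantile normalization. They numbered 1408 and 2765 with a pseudocount 4 times smaller, and 358 and 4 with one 4 times larger. With mean PU.1 at or above its median, centred anew, they numbered 305 and 192, with a fold limit of 1.5, 4955 and 3978, and with 3, 98 and 5. They numbered 319 and 131 by the level-adjusted ratio, and 460 were lost with 1 enhancer per 1 kb. The percentage lost with both factors and with PU.1 only was 27.7 and 14.3 without centring, 5.20 and 1.18 with equal sums, 5.55 and 1.19 after quantile normalization, and 4.27 and 0.847 by the level-adjusted ratio. With the smaller pseudocount it was 13.6 and 5.08, and with the larger 5.43 and 1.65. The cause of these shifts was not tested.

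CEBPA at lost minus kept enhancers was 0.6005 in the second quartile of mean PU.1, against 0.278 over all. The H3K27ac median at lost enhancers was -0.21 with the smaller and -0.062 with the larger pseudocount, and at gained enhancers 0.11 with mean PU.1 at or above its median. The H3K4me1 median at lost enhancers was -0.0098 without centring, -0.052 with the larger pseudocount and -0.25 for level-adjusted classes. At gained enhancers it reversed, to 0.086 without centring, 0.082 with mean PU.1 at or above its median and 0.068 for level-adjusted classes. At kept enhancers it was 0.11 without centring.

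List medians minus that of all genes reversed when each gene was read by the median over all its enhancers, to 0.020 for transcription factors, 0.0028 for stem cell, 0.050 for primary granule, 0.037 for monocyte, 0.0079 for receptor, 0.045 for oxidase, 0.081 for Fc receptor, 0.050 for cell cycle and 0.28 for mast cell genes. There it was -0.043 for the Toll-like receptor and -0.027 for the megakaryocyte list. After quantile normalization it was -0.051 for transcription factors, -0.14 for oxidase, -0.10 for Fc receptor, -0.062 for Toll-like receptor and -0.051 for megakaryocyte genes, and reversed to 0.031 for housekeeping and -0.086 for secondary granule genes, the last 0.081 as reported. By the level-adjusted ratio it was -0.15 for oxidase, -0.051 for Fc receptor, -0.043 for Toll-like receptor and -0.055 for megakaryocyte genes, and reversed to 0.027 for integrins, 0.030 for housekeeping and -0.096 for secondary granule genes.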
